A study of Mus musculus with 3 samples.

Results

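Genes for 6 matrix metalloproteases and 3 of their tissue inhibitors were followed in the cytosolic RNA of macrophages. They were chosen by name, as Mmp8, Mmp9, Mmp12, Mmp13, Mmp14 and Mmp19 with Timp1, Timp2 and Timp3, and make up 9 of the 55536 Ensembl genes in the tables. The cells were bone marrow-derived macrophages of C57BL/6J mice, treated with Lipid A at 100 ng/ml for 10 minutes. Lipid A is the lipid anchor of bacterial lipopolysaccharide and a ligand of the receptor TLR4. Cytosolic RNA was depleted of ribosomal RNA and sequenced as total RNA in 3 replicate libraries, which are the only group. There were no untreated cells, so each value is a level shortly after stimulation and not an induction. The labels give the same donor identifier for all libraries and do not say whether they came from separate animals or cultures, so tests between libraries measure the spread between these samples only.

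Matrix metalloproteases are zinc-dependent endopeptidases that cleave collagens, elastin and other extracellular proteins, and also cytokines and cell surface proteins. Most are secreted or held at the membrane as inactive proenzymes, whose prodomain must be removed before the active-site zinc is free. Tissue inhibitors of metalloproteases bind the active enzyme, with their amino-terminal cysteine set against the zinc. Macrophages are a known source of several of these enzymes, and Mmp12 is named macrophage elastase after them.

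The part of each coding sequence that gives the zinc site is printed first, because it is what the proteases share. The sequences are those of the GENCODE M21 transcripts, 5′ to 3′ on the coding strand, and the capitals mark the codons of the 3 histidines that hold the zinc.
Mmp12, chr9:7352914-7352946: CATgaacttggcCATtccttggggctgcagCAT
Mmp8, chr9:7563086-7563118: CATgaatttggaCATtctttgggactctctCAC
Mmp13, chr9:7276573-7276605: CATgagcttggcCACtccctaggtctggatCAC
Mmp9, chr2:164951133-164951165: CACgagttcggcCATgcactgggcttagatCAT
Mmp14, chr14:54437627-54437659: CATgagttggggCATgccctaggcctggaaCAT
Mmp19, chr10:128795673-128795705: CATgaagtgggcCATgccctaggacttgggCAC
Each site lies within 1 coding exon, and all are on the plus strand of mm10. That exon is the fifth of Mmp8, Mmp13, Mmp14 and Mmp19, the sixth of transcript Mmp12-203 and the eighth of Mmp9. Among these 6 genes the most alike sites shared 25 of 33 bases. This held for Mmp12 with Mmp13 and equally for Mmp14 with each of Mmp9, Mmp13 and Mmp19. The least alike shared 20 of 33, in Mmp8 with Mmp9 and with Mmp14.

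For the inhibitors, the start of the mature protein is printed, with the codons of the first and the following cysteine in capitals.
Timp2, chr11:118354974-118355012, minus strand: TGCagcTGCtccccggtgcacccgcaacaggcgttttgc
Timp1, chrX:20871111-20871149, plus strand: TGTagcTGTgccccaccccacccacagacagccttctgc
Timp3, chr10:86300923-86300961, plus strand: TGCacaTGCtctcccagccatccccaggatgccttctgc
Every pair of these inhibitor stretches was identical at 25 of 39 bases. The stretch lies in exon 1 of Timp2 and Timp3 and in exon 2 of Timp1.

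The 3 libraries held 33825547, 54667365 and 43176007 gene counts. Levels come from the gene tables unless the second set of transcript tables is named. They are given in TPM, a share of transcripts corrected for their length, so that genes can be compared with each other. Nuclear protein-coding genes held only 23.6%, 23.5% and 25.6% of the TPM in replicates 1, 2 and 3, so a rescaling over these genes alone is given where it helps. On a transcript of 1 kb, 3 counts, the limit that a count of 0 allows, corresponded to 0.0450, 0.0294 and 0.0395 TPM, which covers counting error only. Each of 10 macrophage markers reached 1 TPM in all libraries, and their summed level lay between 7947 and 9137 TPM. Fewer cells of a type and less RNA per cell cannot be told apart in such bulk samples.

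Macrophage elastase Mmp12 (ENSMUSG00000049723.14, chr9:7344381-7369499, plus strand) was the highest of the listed proteases. It stood at 39.5, 36.0 and 100.4 TPM in replicates 1, 2 and 3, a mean of 58.6 ± 36.2 TPM (SD, n = 3), from 3669, 5220 and 10810 counts. Replicate 3 lay far above the others, and without it the mean was 37.7 ± 2.45 TPM (SD, n = 2). Of all protein-coding genes, 97.3% had a lower mean level than Mmp12. Rescaled over nuclear protein-coding genes it averaged 237 ± 134 TPM.

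Both listed collagenases were lower than Mmp12 in every library. Mmp8 (ENSMUSG00000005800.3, chr9:7558456-7568485, plus strand), first known as the collagenase of neutrophils, had 6.06, 5.06 and 6.93 TPM, a mean of 6.02 ± 0.936 TPM, and lay above 76.0% of protein-coding genes. Its libraries were close to each other, with the lowest value in replicate 2. Mmp13 (ENSMUSG00000050578.10, chr9:7272514-7283331, plus strand), a collagenase known from cartilage and bone, had 2.48, 1.70 and 2.74 TPM, a mean of 2.31 ± 0.541 TPM. Its lowest library was again replicate 2.

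Mmp14 (ENSMUSG00000000957.11, chr14:54431612-54445364, plus strand) encodes a protease anchored in the membrane that also activates the proenzyme of Mmp2. It had 4.81, 3.19 and 3.38 TPM, a mean of 3.79 ± 0.886 TPM. It was the only listed gene whose single highest library was replicate 1. Mmp19 (ENSMUSG00000025355.7, chr10:128790910-128800824, plus strand), a secreted protease that cleaves basement membrane proteins, had 5.76, 5.09 and 6.51 TPM, a mean of 5.79 ± 0.710 TPM, with little spread between libraries. Its 3′ part overlaps Tmem198b on the other strand, which had 2.85, 2.98 and 2.88 TPM, and its whole span lies within that of the antisense gene Gm47093, which reached at most 0.03 TPM. Whether reads were assigned by strand is not given in the sources used here, so reads over such an overlap may not be told apart.

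The gelatinase Mmp9 (ENSMUSG00000017737.2, chr2:164940780-164955850, plus strand), which stimulated macrophages and neutrophils are known to release, was low. It had 0.17, 0.16 and 0.43 TPM from 34, 47 and 96 counts, with replicate 3 above both other libraries. Its mean of 0.253 ± 0.153 TPM exceeded that of 51.4% of protein-coding genes. The mean was 0.165 TPM without replicate 3, 0.427 TPM as the authors' posterior mean and 0.106 TPM in the second set of transcript tables, so each of these moved the level of Mmp9 by more than 1.5 times.

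Among the inhibitors, Timp2 carried nearly all of the signal. Timp2 (ENSMUSG00000017466.9, chr11:118301069-118355740, minus strand), which inhibits many metalloproteases and links the Mmp2 proenzyme to Mmp14, had 92.9, 101 and 124 TPM from 21402, 36004 and 32673 counts. Its mean of 106 ± 15.96 TPM was the highest of the 9 genes and lay above that of 98.5% of protein-coding genes. Within its span lies Cep295nl on the same strand, which had 0.42, 0.25 and 0.36 TPM.

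Timp1 and Timp3 were near the limit of detection. Timp1 (ENSMUSG00000001131.11, chrX:20870166-20874735, plus strand), an inhibitor that also binds the proenzyme of Mmp9, had 0.08, 0.08 and 0.20 TPM from 3, 5 and 9 counts. It lies inside Syn1, on the opposite strand, which had 3.15, 3.01 and 4.19 TPM. Timp3 (ENSMUSG00000020044.13, chr10:86300372-86349506, plus strand), which stays bound to the matrix and also inhibits Adam17, was listed at 0.03 TPM in each library. The authors' deposited interval for Timp3 in replicate 1 reached from 0.0272 to 0.506 TPM, so its level is known only within a wide range. Timp3 lies inside Syn3, on the opposite strand, which reached at most 0.02 TPM.

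**Figure D1:**
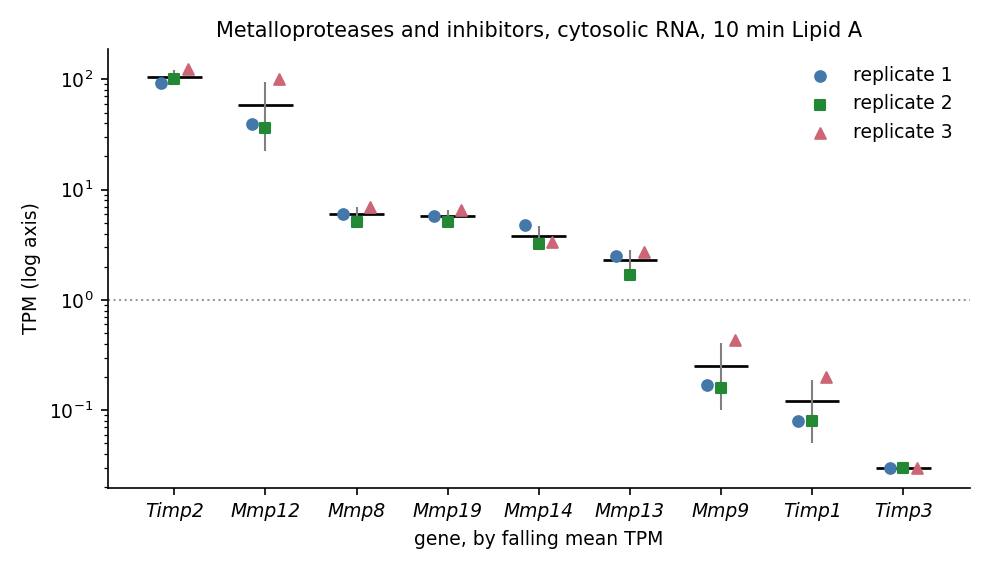
TPM (log axis) of the 9 genes in each of the 3 libraries, ordered by mean. Horizontal lines are means, vertical lines 1 SD, and the dotted line marks 1 TPM. Timp2 and Mmp12 stand above 30 TPM in every library, and Mmp9, Timp1 and Timp3 below 1 TPM.

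Of the 9 genes, 6 thus reached 1 TPM in every library. In the order of mean TPM, neighbours were compared within each library on the scale of log2(TPM + 1), and a pair was said to differ beyond its spread where the difference had the same sign in every library and exceeded 2 SD. This held for 2 of the 8 pairs. Mmp12 exceeded Mmp8 by 2.93 ± 0.64 and Mmp13 exceeded Mmp9 by 1.39 ± 0.18 (log2 differences, SD, n = 3). Timp2 exceeded Mmp12 in every library, by 0.99 ± 0.61, which did not pass 2 SD. Mmp8 and Mmp19 differed by only 0.04 ± 0.05, with opposite signs among the libraries. An exact two-sided sign-flip permutation test over 3 libraries cannot go below p = 0.25, and after Benjamini-Hochberg adjustment over the 8 pairs no p was below 0.286. Without replicate 3 the count of pairs beyond their spread was 6, and Timp2 then exceeded Mmp12 by 1.34 ± 0.18 (SD, n = 2). The limit of 2 SD is a loose one with n = 2. Among the 6 pairs was Timp1 over Timp3, by 0.068 with an SD of 0, since each gene was listed at the same TPM in both libraries.

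The summed proteases were set against the summed inhibitors in each library. The 6 listed Mmp genes summed to 58.7, 51.2 and 120 TPM in replicates 1, 2 and 3, and the 3 listed Timp genes to 93.0, 101 and 124 TPM. The ratio of Mmp to Timp was 0.632, 0.506 and 0.971, a mean of 0.703 ± 0.241 (SD, n = 3). Inhibitor transcripts were higher in all 3 libraries, but by little in replicate 3. The mean log2 ratio was −0.56 ± 0.48, and the exact sign-flip test gave p = 0.25, the smallest it can give. The comparison rests on 1 gene of each side. Timp2 made up 99.9% ± 0.0419 of the Timp sum, and Mmp12 made up 67.2%, 70.3% and 83.4% of the Mmp sum. Leaving out both of these genes turned the log2 ratio to 7.002 ± 0.515 in favour of the proteases. That ratio is set against Timp1 and Timp3 alone, each of which rests on at most 15.5 counts in a library. Taking in all annotated Mmp and Timp genes gave ratios of 0.823, 0.678 and 1.13, so that the direction then differed between libraries.

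Across the whole family, 7 of the 27 annotated genes reached 1 TPM in every library: 6 of the 23 Mmp genes and 1 of the 4 Timp genes. The only one of these outside the listed genes was Mmp27 (17.2, 16.4 and 19.1 TPM, a mean of 17.6 ± 1.40 TPM), which was the second highest Mmp gene. Mmp27, a little studied protease, did not differ beyond counting error between libraries (chi-square test, adjusted p = 0.106). The other 17 unlisted family genes were below 1 TPM in every library, led by the gelatinase Mmp2 with 0.22, 0.38 and 0.13 TPM, the membrane-linked Mmp25 with 0.11, 0.19 and 0.13 TPM and Mmp11 with 0.06, 0.20 and 0.08 TPM. In the gene tables no count was seen in any library for 6 Mmp genes. Among them were the stromelysin Mmp3 and the interstitial collagenase genes Mmp1b and Mmp1a, of which Mmp1a is annotated as a polymorphic pseudogene. For Mmp3, 3 counts would correspond to 0.0290, 0.0186 and 0.0251 TPM. Timp4 had 1 count in all, in replicate 2. The second tables listed 3 of these 6 Mmp genes above 0, with 0.0887, 0.0200 and 0.00125 TPM for Mmp16 in replicates 1, 2 and 3 and less than 0.01 TPM for Mmp20 and Mmp21.

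Most of the Mmp signal came from 1 stretch of chromosome 9. There lie 10 Mmp genes within 427 kb, at chr9:7272514-7699585 in mm10, in the order Mmp13, Mmp12, Mmp1b, Mmp3, Mmp1a, Mmp10, Mmp8, Mmp27, Mmp20 and Mmp7. They held 85.2%, 86.3% and 92.3% of the TPM of all Mmp genes in replicates 1, 2 and 3. Only 4 of the 10 reached 1 TPM in every library, and they lay in 2 neighbouring pairs, Mmp13 with Mmp12 and Mmp8 with Mmp27. Between these pairs lay 4 genes of which Mmp10 was the highest, at 0.06 ± 0.02 TPM. Mmp8 ends 2910 bases before Mmp27 begins, and among the 7 zinc sites compared theirs were the most alike, with 27 of 33 identical bases.
Mmp27, chr9:7577326-7577358: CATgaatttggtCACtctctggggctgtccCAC
Beside the Mmp8 site printed above, this sequence shows how alike the 2 neighbours are where the zinc is held.

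**Figure D2:**
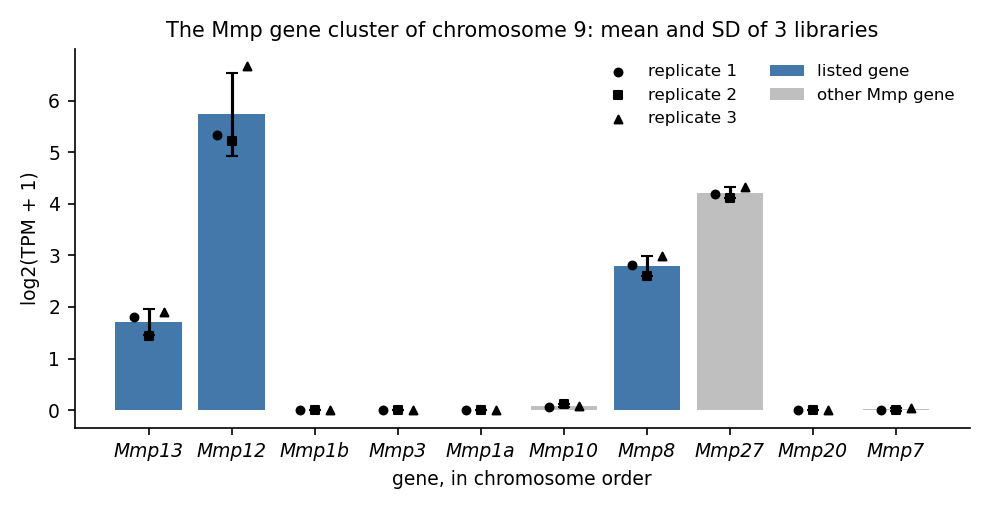
Level of the 10 Mmp genes of the chromosome 9 cluster as log2(TPM + 1), in chromosome order and not to scale along the chromosome. Bars are means, whiskers 1 SD and points the 3 libraries. Mmp13, Mmp12, Mmp8 and Mmp27 stand above 1 TPM, and the other 6 genes lie at or near 0.

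The libraries were then compared gene by gene on counts scaled by TMM library sizes, with a chi-square test and Benjamini-Hochberg adjustment over the 13494 genes whose counts summed to at least 30. Of the 9 genes, 7 could be tested and all of these were called, against 49.2% of all genes tested. Mmp8, Mmp13 and Mmp19 were no longer called without replicate 2, which left 4 of the 7, against 40.9% of all genes tested. Mmp9 and Mmp19 were no longer called without replicate 3, which left 5 of the 7, against 34.4% of all genes. Timp1 and Timp3, with summed counts of 17 and 29.7, were too low to test. By TPM in the gene tables, replicate 3 was the highest library in 7 of the 9 genes, not all of which reach 1 TPM, and in 66.1% of all genes averaging at least 1 TPM. By TPM in the second set of transcript tables, replicate 1 was the highest in 8 of the 9 genes and in 98.9% of all genes at that level. This test asks only whether libraries differ beyond counting error, so small differences of well counted genes pass it. Mmp19 passed it at 31.4, 28.9 and 33.8 CPM (counts scaled by TMM library size) (adjusted p = 0.000364), and Timp2 at 618, 675 and 755 CPM (adjusted p = 2.93e-117).

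Measured by size, Mmp12 and Mmp9 stood out. Mmp12 had 106, 97.9 and 249.95 CPM, so its highest library was 2.55 times its lowest. Mmp9 had 0.982, 0.881 and 2.22 CPM, a ratio of 2.52. In both genes replicates 1 and 2 were close and replicate 3 stood above them. Of the 6 listed genes averaging at least 1 TPM, Mmp12 alone had a ratio of 2 or more between its highest and lowest TPM, as did 3.11% of all genes at that level. The median ratio of the 6 genes was 1.44, against 1.17 for all genes at that level.

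A negative binomial test of 1 library against the others, with the common coefficient of variation of 14.4% that edgeR estimated over all genes, called both genes in replicate 3, where it called 3.87% of all genes tested. It called no listed gene in replicate 1 or in replicate 2, against 4.97% and 0.734% of all genes. This is not independent support for a difference of replicate 3: the lone library has no replicate, its high values had already been seen, and the genes' own coefficients of variation were 33.4% for Mmp12 and 40.5% for Mmp9, well above the common one. Mmp14, with 21.6, 14.3 and 13.99 CPM, was highest in replicate 1 and passed the chi-square test (adjusted p = 1.27e-18), which allows for counting error alone, but it was not called without replicate 1.

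**Figure D3:**
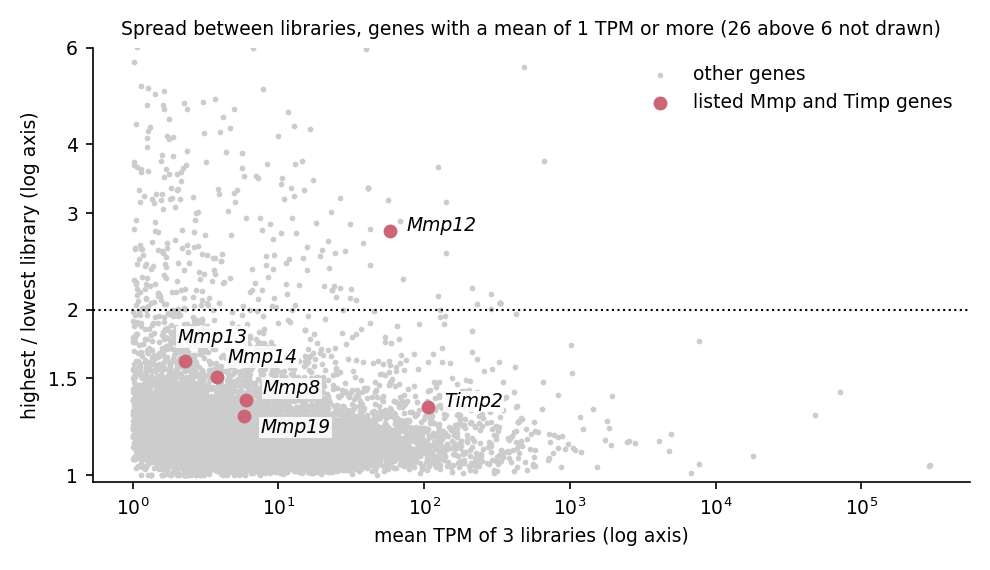
Ratio of the highest to the lowest library by TPM (log axis) against mean TPM (log axis) for genes that average at least 1 TPM. Of the listed genes at that level, Mmp12 alone lies above the dotted line at a ratio of 2. The 26 genes with a ratio above 6 are not drawn.

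In the second set of transcript tables that the authors deposited, replicate 3 of Mmp12 and Mmp9 was also high by scaled counts. There Mmp12 had 92.1, 88.8 and 225 CPM and Mmp9 had 0.939, 0.741 and 1.94 CPM. In the TPM of those tables, however, Mmp12 had 28.4, 13.9 and 32.4 TPM, a mean of 24.9 ± 9.75 TPM, so that replicate 1 lay close to replicate 3, and Mmp9 had 0.134, 0.0537 and 0.130 TPM, with replicate 1 slightly above replicate 3. On that scale replicate 1 was the highest library for every listed gene except Mmp12, for example for Timp2 with 79.99, 49.8 and 48.6 TPM. In the same tables Mmp8 averaged 2.86 TPM, Mmp19 2.89 TPM, Mmp14 2.01 TPM, Mmp13 1.06 TPM and Timp2 59.4 TPM, each over 1.5 times lower than in the gene tables. As a share of Timp2 in the same library, Mmp12 was at 0.425, 0.356 and 0.812 in the gene tables and at 0.355, 0.279 and 0.667 in the second tables.

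Markers of osteoclasts, which arise from the same precursors as macrophages, also summed highest in replicate 3. Of 8 such markers, 3 reached 1 TPM in every library. The highest were the proton pump subunit Atp6v0d2 (49.2, 48.9 and 75.5 TPM), Nfatc1 (13.6, 11.8 and 12.0 TPM), Acp5 (1.07, 1.12 and 1.68 TPM) and cathepsin K, Ctsk (0.86, 0.79 and 1.70 TPM). The 8 markers summed to 64.9, 62.7 and 91.5 TPM, and Atp6v0d2 alone made up most of each sum. Nfatc1 was highest in replicate 1. Of the 8 markers, 6 were highest in replicate 3, but these include genes below 1 TPM in every library. The share over all genes, 66.1%, covers only genes averaging at least 1 TPM, so the 2 shares are not alike. The calcitonin receptor gene Calcr had no count in any library. The part of osteoclasts in the levels of Mmp12 and Mmp9 was not tested. Of 12 neutrophil markers, 4 reached 1 TPM in every library, led by S100a9 (13.1, 20.8 and 19.1 TPM) and S100a8 (8.52, 13.8 and 13.1 TPM). They summed to 26.4, 41.8 and 40.0 TPM, and the defining marker Ly6g had no count. Mmp8, the neutrophil collagenase, had its lowest value in replicate 2, where this sum was highest, and the part of such cells in its level was not tested. Stromal markers, 9 in all, summed to at most 0.15 TPM, with no count for Pdgfra and Lum, and 6 dendritic cell markers summed to at most 2.71 TPM.

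Over the 3 libraries, the genes nearest to Mmp12 in level and pattern, by Euclidean distance of log2(TPM + 1), were S100a6 (41.5, 46.7 and 74.0 TPM, distance 0.57), Hist1h4m (46.8, 48.6 and 81.3 TPM, distance 0.57) and Atp6v0d2 (distance 0.67). Mmp12 was thus more extreme in replicate 3 than its nearest genes. The nearest genes to Mmp14 were Paxbp1, Mapk8ip3 and Dock3, all within 0.11, and those to Mmp13 were Ston2, Bmp2 and Cd22, all within 0.12 of it.

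The annotated transcripts of Mmp12 shared its signal. Most of it fell on 3 of its 7 transcripts. Mmp12-204 held 40.0% ± 1.85 of the gene's TPM, Mmp12-203 held 31.9% ± 2.54 and Mmp12-202 held 27.2% ± 0.963 (SD, n = 3). Mmp12-201, with the longest coding part at 1419 bases, held only 0.554% ± 0.196. Mmp12-204 is annotated as a target of nonsense-mediated decay, the pathway that removes transcripts with an early stop, since its coding part ends after 192 bases, before the zinc site. Transcripts with the zinc site in their annotated coding part held 61.4%, 59.2% and 58.2% in replicates 1, 2 and 3. Nearly all of this lay on Mmp12-203 and Mmp12-202, whose coding parts of 1209 and 1017 bases are shorter than that of Mmp12-201. The shares were alike in replicate 3 although the gene's level there was higher. In the second tables Mmp12-203 led instead, with 41.9% ± 2.25, against 29.97% ± 2.19 for Mmp12-204. The order of the leading isoforms thus differed between the quantifications. Transcripts with the zinc site in their annotated coding part also held more in the second, at 70.3%, 69.5% and 67.0% in replicates 1, 2 and 3.

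**Figure D4:**
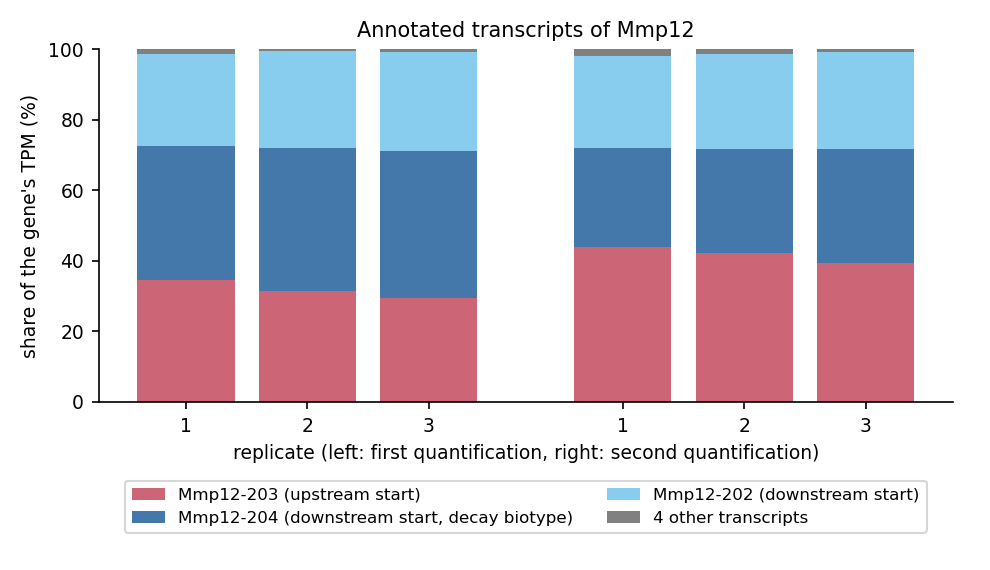
Share of the TPM of Mmp12 held by its annotated transcripts in each library, for both quantifications that the authors deposited. Within a quantification the libraries look alike, and between them Mmp12-204 and Mmp12-203 trade the first place.

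These transcripts begin at 2 places. Those with the upstream start, Mmp12-203 and the short Mmp12-207, held 31.9% ± 2.50 in the first quantification and 41.9% ± 2.20 in the second. Those with the downstream start, which include Mmp12-201, Mmp12-202 and Mmp12-204, held 68.1% ± 2.50 and 58.1% ± 2.20. Transcripts with the downstream start thus held the larger share in both quantifications and in all 3 libraries. The last exon of Mmp12-202 shares 157 bases with exons of Mmp1b, which lies on the opposite strand and had no count in any library. Sequence around both starts is printed because it is where these transcripts part. It is taken from RefSeq (GRCm38.p6, plus strand), from 60 bases before to 50 bases after the RefSeq start, and capitals mark the matches described next.
Mmp12 upstream start, chr9:7344337-7344446: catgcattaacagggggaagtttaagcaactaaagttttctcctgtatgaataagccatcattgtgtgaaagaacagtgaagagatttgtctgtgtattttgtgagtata
Mmp12 downstream start, chr9:7347314-7347423: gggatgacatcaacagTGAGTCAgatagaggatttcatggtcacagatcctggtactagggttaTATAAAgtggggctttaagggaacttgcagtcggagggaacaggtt

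Promoter windows of 250 bases before to 50 bases after the start were found in RefSeq for 7 of the 9 genes, giving 8 windows with both starts of Mmp12, and none was used for Mmp9 or Mmp19. They were searched for TGANTCA, the recognition sequence of the AP-1 factors and its own reverse complement, and on both strands for TATAAA, the TATA box. TGANTCA was found in 2 of the 8 windows, against 7.81% of 32851 RefSeq promoters, and TATAAA in 3 of 8, against 13.6%. The downstream start of Mmp12 held both. TGAGTCA lay 44 bases before its RefSeq start at chr9:7347374 and TATAAA 4 bases after it, inside Mmp12-201 and Mmp12-202, which begin at that start. Mmp12-204 is annotated from chr9:7347406, and TATAAA lies 28 bases before that position and TGAGTCA 76 bases before it. Mmp13 held TGACTCA 35 bases before its start and also TATAAA, and the remaining TATAAA match lay on the minus strand in the window of Mmp8. The window of the upstream start of Mmp12 held neither. A match describes the letters of the window only, and no binding was measured.

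Among the other genes at 1 TPM or more, 1 transcript led. Mmp14-201 held 98.3% ± 1.11 of its gene and Mmp19-201 held 78.8% ± 5.002, with the rest of Mmp19 on Mmp19-203. Mmp8 and Mmp13 have a single annotated transcript. All of Timp2 was assigned to Timp2-201 in the first quantification, against 75.6% ± 3.75 in the second, where the short Timp2-202 took the remaining 24.4% ± 3.75. For the low Timp3, Timp3-201 held 77.8% ± 38.5 in the first quantification and 31.1% ± 16.5 in the second. In the second, the processed transcript Timp3-203 led with 66.7% ± 12.9. In replicate 1 of the first, 3 transcripts were each listed at a rounded 0.01 TPM, so their shares were equal only as rounded. Their estimated counts there were 3.79 for Timp3-201, 1.25 for Timp3-204 and 0.22 for Timp3-203.

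The wider pathway was described by lists of genes. Of 22 genes for the activation, inhibition and uptake of metalloproteases, 10 reached 1 TPM in every library, and 12 of the 13 tested differed between libraries by the chi-square test, against 49.2% of all genes. The highest were Lrp1, an endocytic receptor that clears protease complexes (138, 168 and 202 TPM), Bsg, a surface protein known to induce metalloproteases (72.6, 78.1 and 89.0 TPM), Thbs1, a matrix protein that binds them (77.1, 62.1 and 80.6 TPM), and Cd44, which can hold Mmp9 at the cell surface (53.2, 57.7 and 77.5 TPM). A further 2 genes were named after their values were seen. Furin, the convertase that activates the Mmp14 proenzyme, had 24.2, 23.8 and 24.03 TPM, a narrow range, although its counts differed between libraries by the chi-square test (adjusted p = 1.25e-08). The urokinase gene Plau, whose product generates plasmin, had 14.9, 21.1 and 37.8 TPM. Replicate 3 was its highest library, as for Mmp12 and for 66.1% of all genes averaging at least 1 TPM. Plasminogen itself, Plg, and the convertase gene Pcsk5 had no count.

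Of 14 genes of the related Adam and Adamts proteases, 6 reached 1 TPM in every library, and all 8 tested differed between libraries, against 49.2% of all genes tested. Adam8, a surface protease of myeloid cells, led with 67.0, 82.6 and 127 TPM, followed by Adam15 (53.9 ± 3.27 TPM), Adam9 (34.9 ± 2.94 TPM) and Adam17, the enzyme that sheds TNF (27.5 ± 1.35 TPM). Adam8 and Mmp12 were both highest in replicate 3, as were 66.1% of all genes averaging at least 1 TPM. Of the 14 genes, 6 were highest in replicate 3 and 3, Adam17 among them, in replicate 1, not all at 1 TPM. The mean of Adam8, 92.0 ± 30.9 TPM, exceeded that of each listed metalloprotease. Adamts9 and Adam12 had no count. Of 13 matrix proteins that metalloproteases can cleave, 2 reached 1 TPM in every library. These were Spp1, or osteopontin, with 834, 980 and 1282 TPM, and the laminin chain Lamc1 with 6.11, 7.14 and 7.79 TPM. Elastin, Eln, the substrate that gives Mmp12 its common name, had no count, nor had Vtn, and Vcan (0.267 ± 0.0379 TPM) and Fn1 (0.15 ± 0.0557 TPM) were below 1 TPM.

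**Figure D5:**
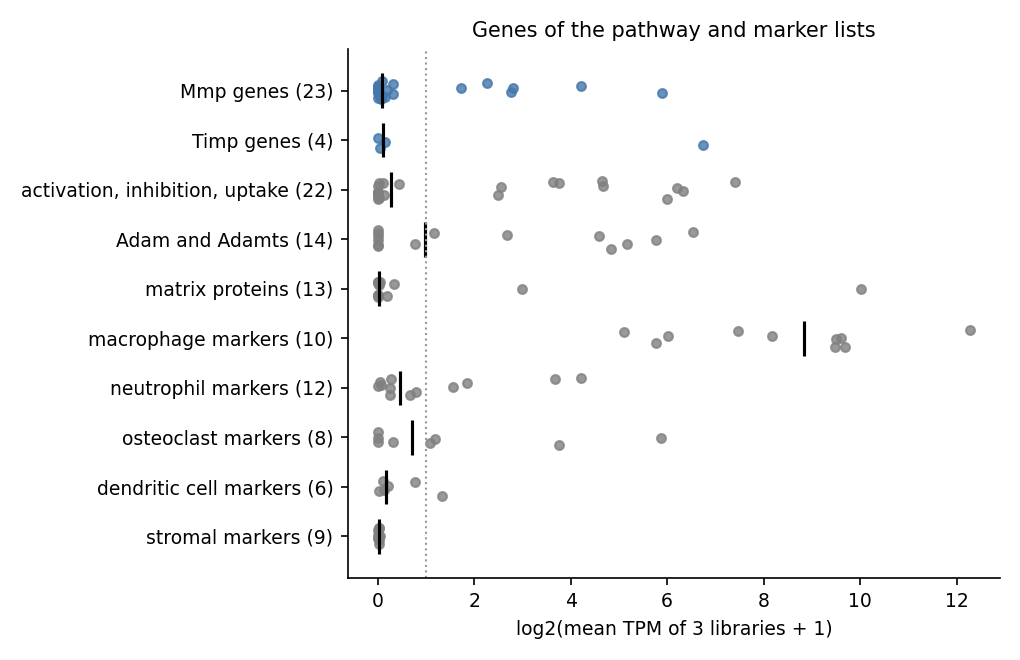
Mean level over the 3 libraries, as log2(TPM + 1), of each gene in the pathway and marker lists, with the number of genes in brackets. Each point is a gene, black lines are medians, the dotted line marks 1 TPM, and the vertical scatter within a row carries no value. The macrophage markers lie above the dotted line, and most Mmp and Timp genes lie near 0.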

How the data were processed

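The authors, per the file headers and the notes deposited with them, derived estimated counts and TPM per gene and transcript on mm10 with annotation M21, in 1 gene table and 2 sets of transcript tables. The sources used here do not give the aligner, quantifiers or strand setting. Posterior mean TPM and interval bounds are also the authors' deposited values. Entries outside Ensembl genes (0.449%, 0.203% and 0.141% of counts) stayed out of library sizes and tests.

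The genes and lists were chosen with earlier results of these data known. Named were all 9 genes, up to 4 of the highest and 2 of the lowest of each list, genes overlapping a listed gene, and for the 3 listed genes with the largest SD of log2(TPM + 1) their 3 nearest genes. Rounded estimated counts were tested with chi-square tests against TMM library sizes and with edgeR 4.0.16 (negative binomial, common dispersion), adjusted at 0.05. For the comparison of libraries, counts of 13494 genes were simulated with counting error alone and with changes in replicate 3 only. On these data the chi-square test recovered 73% of 1.5-fold and 91% of 2-fold changes and called 0.0451% of unchanged genes. These rates do not carry over to the real libraries, whose common coefficient of variation of 14.4% was not simulated. Alternatives varied the libraries used, scaling, filters, pseudocount and quantification. Python 3.11.15, R 4.3.3 and DESeq2 1.42.0 (size factors) were also used.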

Additional observations from a re-analysis of the deposited data

How the results depend on the processing

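No comparison of conditions was possible because the series has 1 group, and values were paired only within a library. The summary values below changed under some alternatives, and the cause was not tested unless it follows from the alternative itself. The median level of the 9 genes, 3.79 TPM, was 2.01 TPM in the second quantification and 15.7 TPM when rescaled over protein-coding genes, and leaving out 1 library gave 3.29 to 4.09 TPM. The 2 pairs of neighbours beyond their spread became 4 in the second quantification and 3 to 6 with 1 library left out. In the latter case each SD rests on 2 libraries. The differences of Mmp8 and Mmp19 (log2 −0.0049) and of Timp1 and Timp3 (log2 −0.00040) changed sign in the second quantification. The log2 ratio of proteases to inhibitors, −0.56, ranged from −0.82 to −0.35 with 1 library left out and was 7.002 without the highest gene of either side. The latter leaves only Timp1 and Timp3 as inhibitors, both near the limit of detection. The 7 family genes at 1 TPM were 16 when more than 3 counts in every library sufficed. The median share of the leading transcript, 100%, was 96.2% in the second quantification. The 7 listed genes that differed between libraries were 2 in the negative binomial test and 4 to 6 with 1 library left out. Without replicate 2, Mmp8, Mmp13 and Mmp19 were no longer called, without replicate 1 Mmp14, and without replicate 3 Mmp9 and Mmp19. Over all genes the 6645 calls (49.2% of those tested) became 3513 to 5187 with 1 library left out (27.5% to 40.9%). Total counts and DESeq2 size factors left all 7 tested listed genes called, against 49.2% of all genes with DESeq2 size factors. With no filter on low counts, 7 of 9 tested listed genes were called, against 31.5% of all genes. Depth limits Timp1 and Timp3, whose levels rest on at most 15.5 counts in a library.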
